A study of Danio rerio with 6 samples.

Results

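The genes described here are 10 markers and regulators of the zebrafish embryonic epidermis: the keratin genes krt4, krt5, krt8, krt17 and krt92, and the identity genes tp63, foxi3a, epcam, cdh1 and dlx3b. They were chosen by name, with earlier results of these data known. Each was looked up among the 24832 gene IDs of the RNA tables and matched a single ID. RNA was sequenced from whole Danio rerio embryos at the 10-somite stage. The control group (normal embryos) and the dnmt1 morphant group had 1 library each. Morphants are embryos in which a morpholino, a synthetic antisense oligomer, has been used to keep a chosen transcript from being spliced or translated. The transcript was that of dnmt1, the maintenance DNA methyltransferase. Whether control embryos were injected, the kind of morpholino and how many embryos made up a library are not given in the labels. Reads in genes amounted to 9.9 megareads for controls and 10.05 megareads for morphants. The series also has 4 methylated DNA libraries from 80% epiboly, which are not used here.

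The early epidermis of a fish is layered. An outer periderm, derived from the enveloping layer that covers the embryo during gastrulation, lies over a basal layer of keratinocytes, and ion-transporting cells called ionocytes are set among them. Keratins are intermediate filament proteins that assemble as pairs of an acidic type I and a basic type II chain and give epithelial cells their mechanical strength. The outer layer is rich in keratin RNA, whereas the basal layer depends on the transcription factor p63, encoded by tp63.

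With 1 library per group no difference below has a replicate check, and no test or p-value is given. Ratios are morphant over control in CPM, read counts scaled to the library total. Their 95% exact (Clopper-Pearson) intervals, like the exact Poisson intervals on levels, cover counting error only and no variation between embryos or libraries. In whole-embryo RNA, fewer cells of a type and less RNA per cell cannot be told apart. Genes of other tissues of a somite-stage embryo were present in the control library, among them the neural gene sox2 (987 reads), the muscle gene myod1 (414), the notochord gene tbxta (1164) and the hatching gland gene he1.1 (1012). The level of dnmt1 RNA is no check of the labels, because some morpholinos act without lowering the RNA they bind.

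In both libraries the keratins stood far above the identity genes. By RPKM, the read count scaled by gene length and library total, krt4 ranked 10 among all genes in the control library and 9 in the morphant library. The keratin genes krt5 and krt8 ranked 31 and 37 in the control and 29 and 32 in the morphant. The 10 genes together took 1.69% of the control reads and 1.90% of the morphant reads. Nearly all of that was keratin: the 5 keratins held 158350 control and 183450 morphant reads, and the 5 identity genes 9398 and 8065. The summed keratin reads were 1.14-fold higher in the morphant library (interval 1.13 to 1.15) and the summed identity gene reads were lower, at a ratio of 0.845 (0.820 to 0.871). The identity genes were not alike, with ratios from 0.681 for cdh1 to 1.34 for foxi3a. The largest drop in reads was that of cdh1, which held 3062 control and 2117 morphant reads of that sum. The order of levels in the control library was krt4, krt5, krt8, krt92, krt17, epcam, cdh1, dlx3b, tp63 and foxi3a, with no overlap of counting intervals between neighbours. In the morphant library cdh1 and dlx3b had overlapping intervals, and no other pair of neighbours did.

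**Figure D1:**
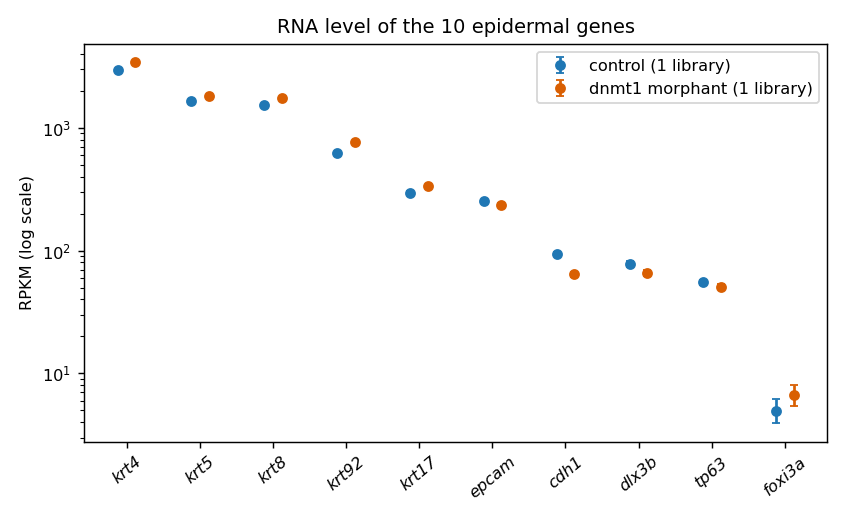
RPKM of the 10 epidermal genes (vertical axis, log scale) in the control library (blue) and the dnmt1 morphant library (orange), ordered by the control level, with 95% exact Poisson counting intervals that are mostly smaller than the points. The levels run from 2961 for krt4 to 4.95 for foxi3a in the control, all 5 keratins and foxi3a lie higher in the morphant library, and cdh1 shows the widest downward gap.

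None of the 10 genes was 2-fold different between the libraries. Over the 13575 genes that had 50 or more reads in the libraries combined, the share past 2-fold was 1.87% upward and 0.663% downward in morphants. At 1.5-fold the genes were likewise 0 of 10 in either direction, against 6.56% of all genes higher and 3.4% lower. At 1.2-fold, krt92 and foxi3a were higher and cdh1 was lower, so 2 of 10 against 21.7% of all genes and 1 of 10 against 15%. Neither count stands out against its background share. Deeply read genes scatter less: among the 3847 genes with at least 1000 reads, which include all of the 10 except foxi3a, 8.94% were higher by that fold and 11.9% lower. The median log2 ratio of the 10 genes was 0.16, beside 0.03 over all genes tested. Of all genes tested 54.3% had a ratio above 1 and 45.7% below, and these shares and those past 1.2-fold are the background for the gene lists that follow. Those lists, too, were chosen with earlier results of these data known.

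The type II keratin genes among the 10 are krt4, krt5 and krt8, typed here by the KEGG orthology that the authors listed for each gene. They carry most keratin RNA of the embryo. The superficial keratin gene krt4 (ENSDARG00000017624) had 72371 control and 84456 morphant reads, or 2961 and 3402 RPKM, a ratio of 1.15 (interval 1.14 to 1.16). The gene krt5 (ENSDARG00000058371) had 39197 and 43841 reads, or 1652 and 1819 RPKM, a ratio of 1.1 (1.09 to 1.12). The gene krt8 (ENSDARG00000058358), whose product is a keratin of simple epithelia in vertebrates, had 33734 and 39183 reads, or 1539 and 1760 RPKM, a ratio of 1.14 (1.13 to 1.16). All 3 were thus slightly higher in the morphant library, with that of krt5 the lowest, its interval lying below those of the other two. Within each library, which needs no scaling between libraries, krt4 stood at 1.79 times the RPKM of krt5 in the control and 1.87 times in the morphant.

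The type I members were higher in the morphant library too. The gene krt92 (ENSDARG00000036834), which the authors' protein match describes as similar to an enveloping layer cytokeratin, had 8649 and 10914 reads, or 618 and 767 RPKM. Its ratio of 1.24 (1.21 to 1.28) was the highest of the 5 keratins, and its interval lay above the intervals of all the other 4. Among the 3847 deeply read genes its ratio stood at percentile 93.9. The gene krt17 (ENSDARG00000094041) had 4399 and 5056 reads, or 296 and 335 RPKM, a ratio of 1.13 (1.09 to 1.18). The interval of krt17 overlapped those of the 3 type II genes.

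The rest of the keratin family was not uniform. By symbol the tables hold 22 keratin genes, of which 19 carry a type I and 3 a type II annotation, the latter being krt4, krt5 and krt8. Keratins in all took 1.99% of control reads (interval 1.98 to 2) and 2.19% of morphant reads (2.18 to 2.19), a ratio of 1.1 (1.09 to 1.1). That total includes the 5 keratins of the 10 genes. The 17 other keratins summed to 38718 and 36247 reads, a ratio of 0.922 (0.909 to 0.935). Within that sum krt18a.1 (22549 and 19426 reads) and krt97 (2487 and 1372) were lower, as described below. Of the 12 keratins with at least 50 reads, 10 had a ratio above 1, against 54.3% of all genes, and these 10 include the same 5. Past 1.2-fold, krt92 was higher and krt97 lower. Their median log2 ratio was 0.16. The 10 keratins under that minimum had at most 14 reads in a library.

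Scaled by library totals, the sum of type I keratins was level while that of type II keratins was higher. TMM scaling, described below, multiplies all ratios by 0.973 and would put the interval of the type I sum below 1. The type I sum also nets genes that were higher against krt18a.1 and krt97, which were lower. Type I genes held 51766 control and 52217 morphant reads, a ratio of 0.993 (0.981 to 1.01), and type II genes 145302 and 167480, a ratio of 1.13 (1.13 to 1.14). The enveloping layer cytokeratin genes cyt1l and cyt1, which are not among the 10, were higher as well: cyt1l had 3921 and 4760 reads, a ratio of 1.2 (1.15 to 1.25), and cyt1 had 2195 and 2581, a ratio of 1.16 (1.09 to 1.23). The type I gene krt99 had 7073 and 7586 reads, a ratio of 1.06 (1.02 to 1.09).

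A pair of abundant type I keratins went the other way. The gene krt18a.1, whose product pairs with keratin 8 in simple epithelia, had 22549 control and 19426 morphant reads, or 1303 and 1105 RPKM, a ratio of 0.848 (0.832 to 0.865). Within a library the RPKM of krt8 was 1.18 times that of krt18a.1 in the control (1.16 to 1.2) and 1.59 times in the morphant (1.57 to 1.62), so the balance between this pair of partner genes differed by more than counting error. The gene krt97 had 2487 and 1372 reads, or 167 and 90.8 RPKM. Its ratio of 0.543 (0.508 to 0.580) was the lowest of the keratins with at least 50 reads, at percentile 0.961 of all genes tested. It was the only one of those 12 past 1.5-fold.

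**Figure D2:**
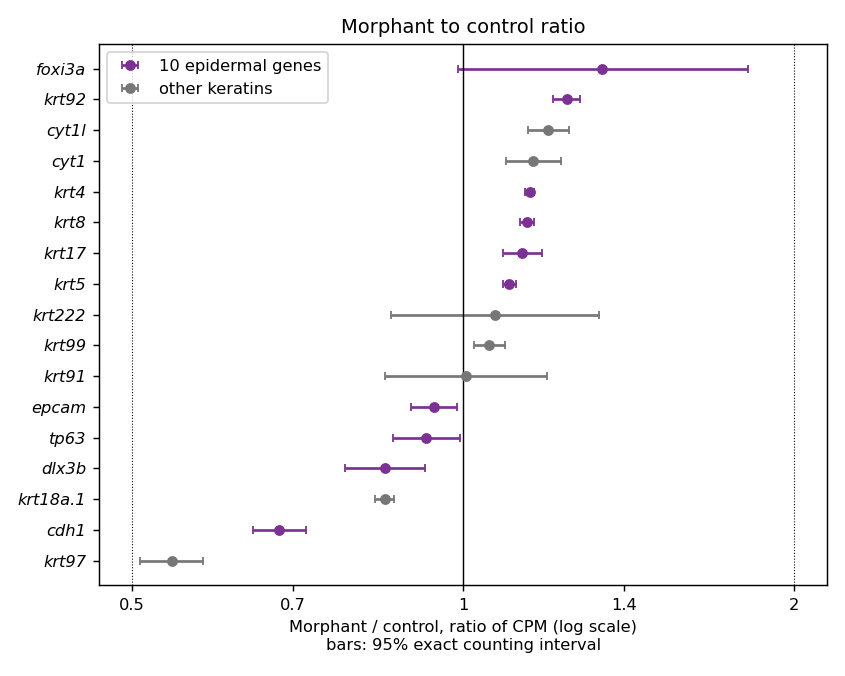
Morphant to control ratio of CPM (horizontal log axis) with 95% exact counting intervals for the 10 epidermal genes (purple) and the 7 other keratins with at least 50 reads (grey). The solid line marks a ratio of 1 and the dotted lines 2-fold. The 5 purple keratins lie between 1.1 and 1.24, cdh1 lies at 0.681 and krt97 lies lowest at 0.543.

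For several type I keratins the reads covered little of the gene. The tables count unique reads, and give the share of each gene's length that was covered. That share was 53.5% (control) and 53.4% (morphant) for krt17, 61.7% and 62.1% for cyt1l, and 38.9% and 40.6% for cyt1. Genes of similar reads per base (within 1.3 times) had a median of 98.2% in the control for krt17 (95 genes), 98.2% for cyt1l (107 genes) and 97.5% for cyt1 (318 genes). Within those sets the control values of krt17, cyt1l and cyt1 stood at percentiles 2.11, 2.8 and 0.629. Of the 3847 genes with at least 1000 reads, 3.61% were covered under 70% in both libraries, and these included 3 of 10 such keratins. The 3 are krt17, cyt1l and cyt1. The gene krt97 had 84.8% and 83.6%, and the less abundant krt91, with 274 and 280 reads, had 45.3% and 45.5%. By contrast krt4, krt5, krt8, krt92, krt99 and krt18a.1 were covered over at least 98.9% in both libraries. The covered share of krt17, cyt1l and cyt1 differed between libraries by less than 2 percentage points. Their levels per length, which divide by the full gene length, and their reads are uncertain, since paralogs in this family may share sequence and reads that match several genes would not be unique. Sharing of reads was not tested.

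**Figure D3:**
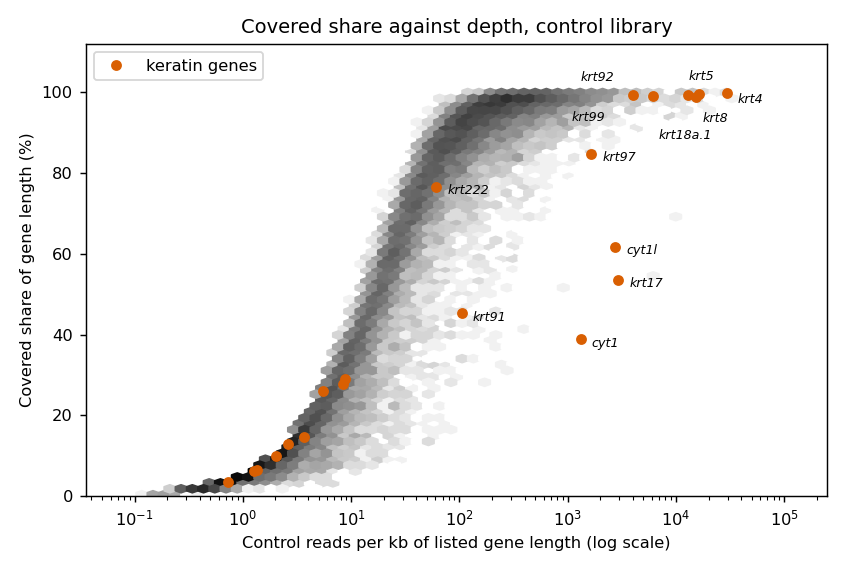
Covered share of gene length (vertical axis, percent) against control reads per kb of listed gene length (horizontal log axis) for all genes with reads (grey density, darker for more genes) and for the keratin genes (orange). The genes cyt1, krt17, cyt1l and krt91 lie far below the band of other genes at their depth, at 38.9%, 53.5%, 61.7% and 45.3%, while krt4 reaches 99.96%.

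Among the identity genes, the basal layer regulator tp63 was slightly lower in the morphant library, its ratio at percentile 30.0 of all genes tested. The gene tp63 (ENSDARG00000044356) had 1612 control and 1516 morphant reads, or 55.0 and 51.0 RPKM, a ratio of 0.926 (0.863 to 0.994). Other genes of basal keratinocytes, their anchorage to the basement membrane and the fin fold had ratios on both sides of 1. Of 26 listed genes, tp63 included, 24 were found. Of 22 gene IDs with at least 50 reads, 7 were higher and 2 lower by 1.2-fold or more, against 21.7% and 15% of all genes. The median log2 ratio was -0.01. Past 1.5-fold, 4 of the 22 were higher, against 6.56% of all genes, and 1 was lower, against 3.4%. The higher ones were the basement membrane genes frem1a (22 and 37 reads, ratio 1.66, interval 0.951 to 2.95), frem2b (68 and 114, ratio 1.65) and col7a1 (48 and 80, ratio 1.64) and the fibulin gene fbln1 (341 and 520, ratio 1.5). The lower one was frem1b, with 873 and 567 reads and a ratio of 0.639 (0.574 to 0.712). For frem1a the interval held 1, and frem2b and col7a1 rest on few reads.

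The ionocyte regulator foxi3a was the least abundant of the 10. It (ENSDARG00000055926) had 78 control and 106 morphant reads, or 4.95 and 6.62 RPKM. The ratio of 1.34 was the highest of the 10, but its interval, 0.989 to 1.82, held 1. Its close relative foxi3b, also an ionocyte factor, had 72 and 65 reads, a ratio of 0.889 (0.626 to 1.26), and gcm2, needed for one ionocyte class, had 43 and 68 reads, a ratio of 1.56 (1.05 to 2.34). Of 26 listed ionocyte genes 22 were found, and of the 13 gene IDs with at least 50 reads, 2 were at least 1.2-fold higher, namely foxi3a and gcm2, against 21.7% of all genes. A single gene was at least 1.2-fold lower. It was the Notch ligand gene dlc, with a ratio of 0.823. The median log2 ratio was 0.07. Transport genes in this list ranged widely in reads, with 1 and 3 for slc9a3.2 and 1 and 4 for slc12a10.2. The carbonic anhydrase gene ca2 had 301 and 339, and the sodium pump gene atp1a1a.1 had 7375 and 7888. With whole-embryo RNA these reads cannot be assigned to ionocytes alone.

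The adhesion genes epcam and cdh1 were both lower, by very different amounts. EpCAM is a cell-surface adhesion molecule of epithelia, and E-cadherin, the product of cdh1, joins cells at adherens junctions and is needed for epiboly in zebrafish. The gene epcam (ENSDARG00000040534) had 3429 and 3276 reads, or 252 and 237 RPKM, a ratio of 0.941 (0.896 to 0.987). The gene cdh1 (ENSDARG00000024371) had 3062 and 2117 reads, or 94 and 64.0 RPKM, a ratio of 0.681 (0.644 to 0.720). The cdh1 ratio was at percentile 3.85 of all genes tested and 1.81 of the deeply read genes, and the epcam ratio at 33.1 and 35.2. Within a library epcam stood at 2.68 times the RPKM of cdh1 in the control (2.55 to 2.81) and 3.70 times in the morphant (3.50 to 3.91). Against krt4 the contrast was wider, with krt4 at 31.5 times cdh1 in the control and 53.2 times in the morphant.

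Genes that act with these adhesion molecules were taken as 2 lists. Of 20 genes tied to EpCAM in epithelia 14 were found, epcam included, and of the 13 with at least 50 reads, 1 was at least 1.2-fold higher (the protease gene st14b, 76 and 97 reads, ratio 1.26, interval 0.921 to 1.72) and 0 were lower, against 21.7% and 15% of all genes. The tricellular junction gene marveld2b had 162 and 187 reads, a ratio of 1.14. The claudin gene cldn7b had 1650 and 1586 reads, a ratio of 0.946 (0.883 to 1.01), and the median log2 ratio was 0.01. In the list of cadherins, catenins and nectins, 21 of 25 were found and 14 gene IDs had at least 50 reads, of which 1 was at least 1.2-fold higher, against 21.7% of all genes, and 3 lower, against 15%. The lower genes were cdh1, the delta-catenin gene ctnnd2b (851 and 656 reads, ratio 0.759, interval 0.684 to 0.841) and a gene ID named nectin1b (318 and 259, ratio 0.802, interval 0.678 to 0.948). Another gene ID of that name had 277 and 269 reads, a ratio of 0.956 (0.805 to 1.13). The median log2 ratio was -0.08. N-cadherin, cdh2, which marks neural and mesodermal cells, had 10056 and 8697 reads, a ratio of 0.851 (0.827 to 0.876). The beta-catenin gene ctnnb1 had 15230 and 14756 reads, a ratio of 0.954 (0.932 to 0.976). The kidney cadherin cdh17 was the 1 gene higher (114 and 221 reads, ratio 1.91).

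Genes of the snail, zeb and twist families and the related tcf3a and tcf3b, several of which repress cdh1 in other systems, formed a further list. All 14 listed genes were found and 11 had at least 50 reads, of which 0 passed 1.2-fold upward, against 21.7% of all genes, and 3 downward, against 15%. Of the 11, 9 had a ratio below 1, against 45.7% of all genes, and their median log2 ratio over all 11 was -0.16. The gene zeb2b had 123 and 61 reads, a ratio of 0.488 (0.353 to 0.669), and twist2 had 90 and 53, a ratio of 0.580 (0.405 to 0.823). The remaining gene past 1.2-fold downward, snai1a, had 1092 and 902 reads, a ratio of 0.813 (0.744 to 0.889). The highest ratio among the 11 was that of snai1b, with 518 and 622 reads, at 1.18 (1.05 to 1.33).

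The homeobox gene dlx3b, which acts in the preplacodal ectoderm at the border of neural plate and epidermis, was lower. The gene dlx3b (ENSDARG00000014626) had 1217 control and 1050 morphant reads, or 77.3 and 65.6 RPKM, a ratio of 0.849 (0.781 to 0.923). Of 24 listed transcription factors of this border, dlx3b included, 17 were found. Of the 15 with at least 50 reads, 12 had a ratio below 1, against 45.7% of all genes, and 6 were at least 1.2-fold lower, against 15%. The median log2 ratio was -0.19. The neighbouring gene of the same family, dlx4b, had 162 and 108 reads, a ratio of 0.656 (0.510 to 0.842), and irx7 had 534 and 360, a ratio of 0.664 (0.579 to 0.760). The single gene at least 1.2-fold higher was dlx5a, with 116 and 168 reads and a ratio of 1.43 (1.12 to 1.82). The non-neural ectoderm genes tfap2a (ratio 0.771, interval 0.729 to 0.816) and gata3 (0.795, 0.744 to 0.849) were lower, while tfap2c was at 0.946 (0.903 to 0.992).

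Periderm genes other than keratins were near the background. Of 25 listed 18 were found, and of 17 with at least 50 reads 8 had a ratio above 1, against 54.3% of all genes. Past 1.2-fold 4 were higher, against 21.7%, and 2 lower, against 15%, and the median log2 ratio was -0.04. The higher genes were the claudins cldni (709 and 983 reads, ratio 1.37), cldne (ratio 1.22) and cldnb (ratio 1.22), and icn2, which had 27 and 34 reads. The lower genes were ahnak (4075 and 3284 reads, ratio 0.793) and klf17 (951 and 777, ratio 0.804), which also marks the hatching gland. The epidermal regulators grhl3 and grhl1 had ratios of 1.03 and 0.937. For genes of desmosomes and of proteins that tie keratin filaments to them, 13 of 18 were found and the median log2 ratio was 0.08. Of 11 gene IDs with at least 50 reads, 1 was at least 1.2-fold higher (pkp2, 132 and 219 reads, ratio 1.63), against 21.7% of all genes. By that fold 0 were lower, against 15%. The desmoglein gene dsg2.1 had 1087 and 1259 reads, a ratio of 1.14. The plakin genes ppl and evpla, which are in both the periderm and the desmosome list, had ratios of 0.938 and 0.935. Intermediate filament genes that are not keratins had a median log2 ratio of 0.02 over 9 genes, with vim, a filament gene of mesenchymal and glial cells, highest at 1.74 on 55 and 97 reads, and gfap at 1.3 on 262 and 345.

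**Figure D4:**
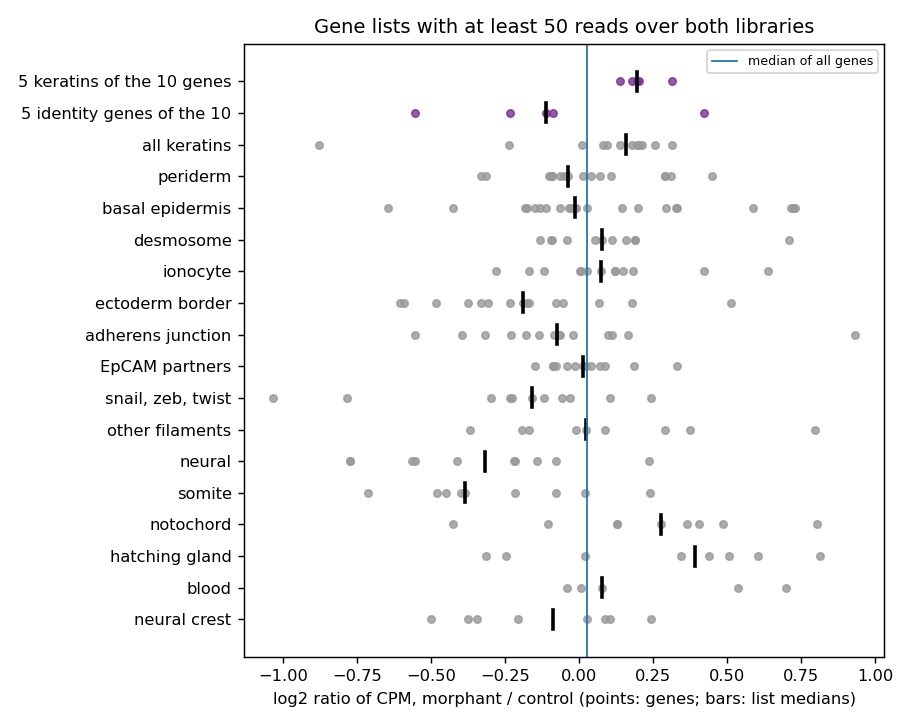
Log2 ratio of CPM, morphant over control (horizontal axis), for every gene with at least 50 reads in each list (points) with the list median (black bar) and the median of all genes (blue line, 0.03). The 5 keratins of the 10 genes cluster between 0.14 and 0.31, the 5 identity genes spread from -0.55 to 0.42, and the neural and somite lists lie lowest with medians of -0.32 and -0.39.

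Marker lists of other cell types differed between the libraries as well, and their part in the epidermal ratios was not tested. Neural markers summed to 1066 control and 905 morphant CPM, with 9 of 10 below a ratio of 1, and somite markers to 1040 and 884, with 7 of 9 below 1, against 45.7% of all genes. Hatching gland and yolk layer markers summed to 756 and 874 CPM, with 6 of 8 gene IDs above 1, and notochord markers to 433 and 498, with 7 of 9 above 1, against 54.3% of all genes. Neural crest markers summed to 695 and 618 CPM, with 4 of 8 above 1, against 54.3% of all genes, and 4 below. Of that sum tfap2a, which is also among the border genes, held 281 and 217 CPM. Blood and vessel markers summed to 115 and 126 CPM, with 4 of 5 above 1, against 54.3% of all genes. Among those above 1, the intervals of tal1 (0.927 to 1.2) and lmo2 (0.874 to 1.15) held 1. No matched marker in these 6 lists was at 0 in either library. In the neural list en2a (253 and 150 reads, ratio 0.584) and ascl1a (59 and 35, ratio 0.584) lay lowest, and in the somite list her7 (389 and 241, ratio 0.61) and msgn1 (1297 and 943, ratio 0.716). The neural gene above 1 was elavl3 (1601 and 1916 reads, ratio 1.18, interval 1.1 to 1.26). Of the neural sum sox19a held 366 and 275 CPM. In the hatching gland list a gene ID named ctslb (189 and 337 reads, ratio 1.76) and he1.1 (1012 and 1564, ratio 1.52) lay highest. Reads covered only 41.6% and 42.0% of the length of that ctslb ID. The notochord genes col9a2 and col8a1a had ratios of 1.75 and 1.4, and the blood genes hbae3 and gata1a 1.62 and 1.45. Of the notochord sum col8a1a held 99.6 and 139 CPM. The notochord genes below 1 were noto (127 and 96 reads, ratio 0.744, interval 0.565 to 0.978) and tbxta (ratio 0.93, interval 0.855 to 1.01). In the neural crest list foxd3 had 39 and 28 reads, a ratio of 0.707 (0.419 to 1.18), with 9.06% of its length covered in each library. Some other markers lay near 1, among them myod1 at 1.01, lmo2 at 1 and sox10 at 1.02.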

How the data were processed

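RNA tables of 1 control and 1 morphant library were used. Each gives, per the file headers, counts of unique reads per Ensembl gene, the covered fraction of the gene and RPKM, all deposited by the authors. The deposited RPKM equal count over listed length and library total. A dash was read as 0. The submitters' processing notes name TopHat2, BWA, HTSeq 0.6.1 and MACS2 without roles. The genome build and strand setting are not stated there or in the headers. Rows sharing a gene ID were summed (376 of 25022 rows, no keratin among them). Symbols came from Ensembl names (12556 IDs) or, failing that or where the name was human-style, from the RefSeq protein in the authors' protein match (7817), and 4459 IDs had none. Through the latter 3 of the 10 genes (tp63, cdh1, dlx3b) were named. Lists were also matched through human-style names (23 IDs). Unmatched list genes did not enter. A gene of the periderm list is not reported here and was taken out of that list after the results were seen.

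CPM used total reads in genes. Counts and medians of lists are over genes with 50 or more reads in total. The 10 genes and all lists were chosen with earlier results of these data known. Named genes are the 10, the leading keratins, and in each list those past 1.5-fold or the 2 with the largest log2 ratio in either direction. Others were named after their values were seen. Alternatives were TMM scaling (edgeR 4.0.16, R 4.3.3), median-of-ratios factors, totals without keratins, a prior count of 2, RPKM with pseudocounts of 1 and 0.1, and other read minimums and folds. Steps were tested on simulated data. Tables were handled in Python 3.11.15 with pandas 2.3.3, intervals computed with SciPy 1.17.1 and plots drawn with matplotlib 3.10.9. Peak lists of the 4 methylated DNA libraries were not used, since no gene coordinates on their build were at hand.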

Additional observations from a re-analysis of the deposited data

How the results depend on the processing

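Every one of the 10 genes kept its direction under the scalings, pseudocount and prior count tried. TMM scaling, which lowers all ratios by 0.04 on the log2 scale, gave 1.12 for krt4, 1.07 for krt5 and 1.11 for krt8, and 1.07 for the sum of keratins. Median-of-ratios factors gave 1.13 for krt4 and 1.09 for krt5. These values lie outside the narrow counting intervals, and the other 55 alternative values of the 10 genes lie inside theirs. Among the 55, taking only the row with the most reads could not differ, because each of the 10 genes has 1 row. The counts of the 10 genes past 2-fold stayed at 0 at 1.5-fold and under every read minimum tried. The read minimums could not have raised these counts, because all 10 genes passed the main one and a stricter minimum only removes genes. Of 54 alternative list medians, 4 differed by over 0.1 from the values given, all for hatching gland, blood and neural crest lists. Taking keratins by the authors' orthology, or only those covered over at least 90% of their length, both chosen after seeing the data, left the keratin sum inside its interval. No paired analysis was possible because each RNA group has 1 library. Counts of 78 and 106 reads leave a ratio of 1 inside the interval of foxi3a.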
